A study of Tupaia belangeri chinensis with 36 samples.

Results

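The comparison described here set the microRNAs (miRNAs) of the testis against those of the cauda, the tail of the epididymis, in Chinese tree shrews (Tupaia belangeri chinensis) taken in the reproductive season. Its members were the 3 small RNA libraries labelled TESTIS-R and the 3 labelled CAUDA-R, which are 6 of the 18 small RNA libraries and of the 36 libraries of the series. The animals of both groups were sexually mature males of 1.5 to 2 years, taken in mid-April 2024. The labels give no mutant allele and no treatment for either group. TESTIS-R was whole testis and CAUDA-R was whole cauda epididymis, each with 3 biological replicates, sequenced as single reads of 50 nt from RNA with an integrity number of at least 7. The labels do not say whether a testis and a cauda library with the same number came from 1 animal.

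A miRNA is a short RNA cut from a hairpin precursor, which can leave a product from each of its arms, named 5p and 3p. Loaded on an Argonaute protein, it pairs through its seed with messenger RNAs and lowers their translation and stability. The testis holds germ cells in all stages of spermatogenesis with Sertoli and Leydig cells, while the cauda stores mature sperm in a duct of epithelium wrapped in contractile muscle. Many miRNAs are made chiefly by 1 cell type, and so they follow the cells a tissue holds. In whole tissue, fewer cells of a type and less RNA per cell cannot be told apart.

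The testis libraries held 2746650, 4800500 and 2166152 miRNA counts, against 9591069, 7061843 and 7906896 in the cauda libraries, so depth moved with tissue, and its part in the results was not tested. The deposited table had 1210 entries, of which 491 carried a plain mouse miRNA name. The other 719 carried a prefix that marks new entries, followed in some by a mouse name. These 719 are called entries without a mouse name here, and the miRNA groups below were drawn from the 491 only. The 10 most abundant entries took 69.8% to 72.2% of the counts of a library. Spearman correlations over all entries tested ran from 0.813 to 0.870 between testis libraries, from 0.890 to 0.930 between cauda libraries and from 0.637 to 0.691 between a testis and a cauda library. Testis library 3 was the farther from the other testis libraries, at 0.813 and 0.816.

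Total counts of piRNAs, the longer small RNAs that mammalian germ cells make in bulk during meiosis, followed the labels. The testis libraries had 4151639, 6440714 and 4528867 piRNA counts, against 83822, 23499 and 58896 in the cauda libraries. The ranges did not overlap, and the geometric mean was 101-fold higher in testis (two-sided exact permutation test, p = 0.1, which is the smallest that 3 against 3 allows). Over the miRNA totals of the libraries, the piRNA counts were 269-fold higher in testis (exact p = 0.1). Of the miRNAs taken as markers, miR-202-5p of the gonad and miR-34b-5p, miR-34c-5p and miR-449a-5p of germ cells were higher in testis. All mouse-named arms of the epithelial miR-200 family were lower, as given with their values below. The arm miR-34b-3p was not called.

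Of the 1210 entries, 476 passed the filter on low counts and were tested, and 231 of them were called at an adjusted p under 0.05 (48.5%). Relative to cauda, 117 were higher in testis (24.6%) and 114 were lower (23.9%). An unadjusted p under 0.05 was reached by 261 entries. The median log2 change over all entries tested, testis minus cauda, was 0.06. All 231 called entries had testis and cauda levels, in CPM (counts scaled to library size), that did not overlap, and 301 of the 476 entries tested had such values. At least 8-fold differences were called for 45 entries higher and 55 lower in testis, and at least 32-fold differences for 26 and 36. Entries called higher took 65.8% to 65.9% of the counts of a testis library, against 26.7% to 32.7% of a cauda library. Those called lower took 14.7% to 15.5% in testis, against 52.0% to 55.6% in cauda. Much of the first share was held by miR-101a-3p and miR-101c, near-identical entries with a small change, described below. Without them, entries called higher took 26.2% to 28.1% of the counts in testis, against 5.59% to 5.99% in cauda. The split by direction depended on the scaling: with library totals in place of the trimmed mean scaling, 130 entries were higher and 100 were lower, and the median of all entries shifted up by 0.29. A miRNA that is high in 1 tissue only passes the filter through that tissue, so the counts of called group members given below describe the entries tested and no more. They are to be read beside the shares over all entries tested. The groups hold mouse-named entries only, and of the 305 of these tested, 67 were higher and 100 were lower, with a median log2 change of -0.47.

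**Figure D1:**
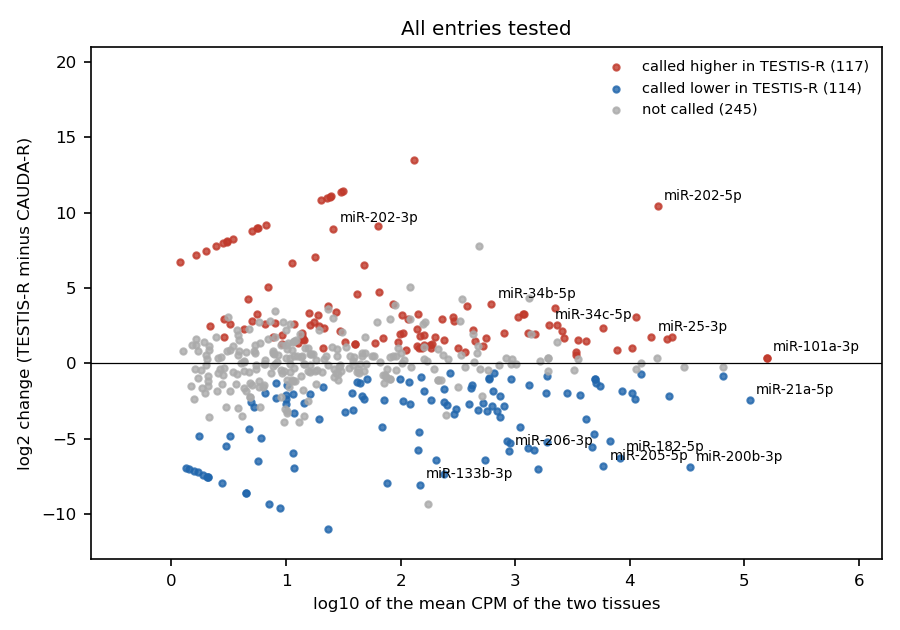
Log2 change (TESTIS-R minus CAUDA-R, vertical) against the log10 of the mean CPM of the tissues (horizontal) for the 476 entries tested, with 117 called higher in red, 114 called lower in blue and the rest in grey. miR-202-5p stands at 10.45 and miR-200b-3p at -6.91, and the sloping rows of points at low mean are entries at 0 in 1 tissue, whose log2 change depends on the prior count.

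The most abundant miRNAs were shared by the tissues in part. miR-101a-3p ranked first in testis, with 171312, 183491 and 174149 CPM, against 138989, 134693 and 134985 CPM in the cauda libraries. The groups did not overlap, yet the change was small, at a log2 change of 0.37 ± 0.09 (SE, adjusted p = 0.0200 in edgeR's quasi-likelihood test). It missed the threshold in 5 of the 6 fits that left out 1 library, each except the one without cauda library 2, with adjusted p up to 0.32 without testis library 2. The entry miR-101c differed from miR-101a-3p by at most 1% in each library, so the same reads may have been counted under both names. With such near-identical entries counted once, miR-101a-3p missed the threshold (adjusted p = 0.0677), and without the low-count filter its adjusted p was 0.273.

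miR-21a-5p, a miRNA linked to epithelial growth and inflammation, ranked first in cauda and was 5.42-fold lower in testis. Its level was 34243, 33000 and 36960 CPM in the testis libraries, against 154215, 262720 and 147360 CPM in the cauda libraries. The lowest cauda library lay far above the highest testis library (log2 change -2.44 ± 0.26, adjusted p = 0.00118). Other miRNAs were abundant in both tissues and were not called. miR-29c-3p, a repressor of collagen and other matrix genes, averaged 60404 ± 5518 CPM in testis and 70851 ± 23468 CPM in cauda (SD, n = 3 each; adjusted p = 0.485). For miR-29a-3p of the same family, the means were 27383 ± 1126 CPM in testis and 31834 ± 13924 CPM in cauda (adjusted p = 0.596). Cauda library 2 held 97917 CPM of miR-29c-3p and 47903 CPM of miR-29a-3p, above the other cauda libraries.

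Relative abundance moved far for other leading miRNAs. miR-202-5p ranked 6 in testis and 234 in cauda, and miR-200b-3p ranked 76 in testis and 6 in cauda. miR-30a-5p ranked 5 in testis, with 38095, 42413 and 27652 CPM, against 10872, 10155 and 11452 CPM in the cauda libraries, where it ranked 19. That was 3.33-fold higher in testis, without overlap (log2 change 1.74 ± 0.19, adjusted p = 0.00131). miR-25-3p, a product of the miR-106b to 25 cluster, ranked 10 in testis and 26 in cauda and was 3.29-fold higher in testis (log2 change 1.72 ± 0.23, adjusted p = 0.00226). miR-125b-5p ranked 4 in both tissues and was lower in testis, at 45693, 47383 and 47315 CPM, against 73572, 103065 and 69658 CPM in the cauda libraries (log2 change -0.81 ± 0.18, adjusted p = 0.0129).

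**Figure D2:**
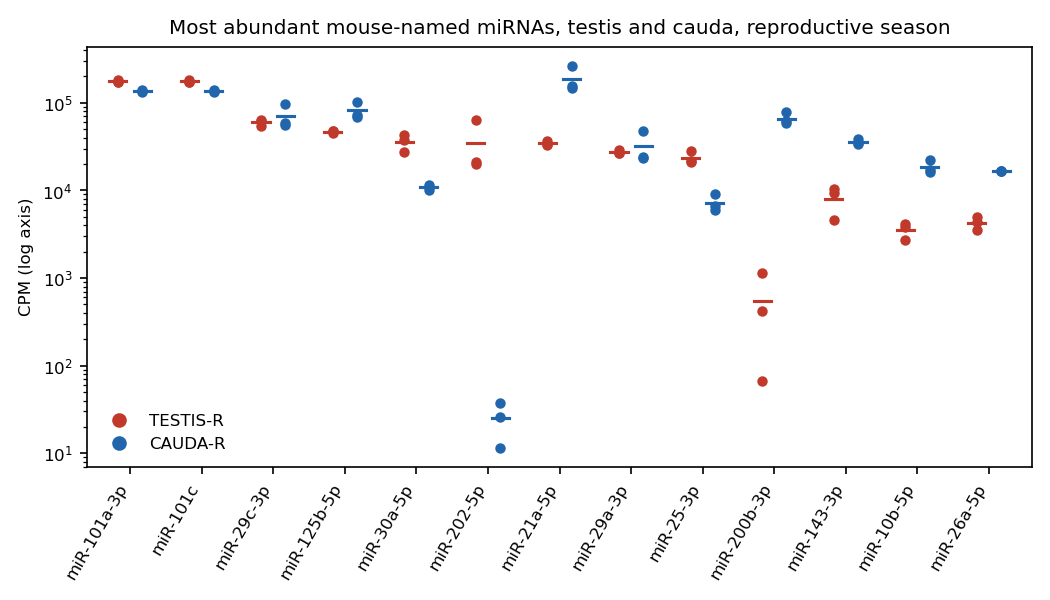
CPM (vertical, log axis) of the most abundant mouse-named miRNAs in each TESTIS-R library (red, left of each pair) and CAUDA-R library (blue, right), with bars at the means. miR-101a-3p lies close in the tissues, miR-21a-5p is lower in testis, and miR-202-5p has 20247 to 63908 CPM in testis, against 11.6 to 37.4 CPM in cauda.

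The widest change among mouse-named miRNAs with at least 100 CPM in 1 tissue was that of miR-202-5p, which vertebrate gonads express, in the mouse from Sertoli cells and early germ cells. It had 21356, 20247 and 63908 CPM in the testis libraries, against 26.2, 11.6 and 37.4 CPM in the cauda libraries. Every testis library was far above every cauda library, and testis library 3 held the highest value. The log2 change was 10.45 ± 0.93 (adjusted p = 0.000738), and without testis library 3 it was 9.605. The other arm, miR-202-3p, had 58.5, 43.6 and 53.2 CPM in testis, against 0.218 CPM in cauda library 1 and 0 in the other cauda libraries. With 2 counts in cauda in all, the ratio of testis to cauda was 566, with a 95% interval for counting error of 156 to 4686. Of the 4 members tested in the gonadal somatic group, miR-202-5p and miR-202-3p rose in testis, miR-204-5p fell (log2 change -1.87 ± 0.41, adjusted p = 0.0123), and miR-184-3p was not called, with 19.5, 9.26 and 16.2 CPM in testis, against 8.61, 3.25 and 5.83 CPM in cauda.

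The miR-34 and miR-449 family, which meiotic and later male germ cells and multiciliated cells express and which share a seed, was higher in testis in 5 of the 6 members tested, of 8 in the table. Its median log2 change was 2.91, beside 0.06 over all entries tested and -0.47 over the mouse-named ones. miR-34c-5p had 2604, 3541 and 3901 CPM in the testis libraries, against 718, 438 and 562 CPM in the cauda libraries (log2 change 2.55 ± 0.28, adjusted p = 0.00118). miR-449a-5p had 1622, 2331 and 1764 CPM in testis, against 319, 134 and 216 CPM in cauda (log2 change 3.09 ± 0.38, adjusted p = 0.00168). In both cases the groups were well apart, and both miRNAs were counted in every cauda library.

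miR-34b-5p had the widest difference of the family, with 703, 1237 and 1527 CPM in testis, against 110, 52.7 and 67.9 CPM in cauda (log2 change 3.91 ± 0.46, adjusted p = 0.00145). miR-34a-5p, which in many tissues is a target of p53 and comes from another locus than miR-34b and miR-34c, had 213, 410 and 147 CPM in testis, against 30.2, 29.8 and 21.02 CPM in cauda (log2 change 3.25 ± 0.48, adjusted p = 0.00340). Testis library 2 held the highest value, and without it the log2 change of miR-34a-5p was 2.64. The member not called was miR-34b-3p, with 64.3, 120 and 152 CPM in testis, against 159, 109 and 130 CPM in cauda. Reads of miR-34b-5p and miR-34c-5p are close in sequence, and how the authors divided such reads is not given in the sources used here.

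Several miRNAs of proliferating cells were higher in testis. The miR-17 to 92 cluster and its relatives are driven by MYC and E2F in dividing cells. Of the 16 members tested (of 17 in the table), 10 were called higher and 0 lower, with a median log2 change of 1.59. The count of higher members was 6 without testis library 2 and 5 without cauda library 3. Not called were miR-17-5p, miR-20a-5p, miR-92a-3p, miR-93-5p, miR-106b-5p and miR-93-3p. The log2 change was -1.34 for miR-106b-5p and -1.63 for miR-93-3p. miR-363-3p, from the X-linked relative of the cluster, had 455, 581 and 502 CPM in the testis libraries, against 77.1, 75.5 and 69.0 CPM in the cauda libraries (log2 change 2.79 ± 0.21, adjusted p = 0.000725). miR-20b-5p, from the same X-linked cluster, averaged 20.3 ± 6.22 CPM in testis and 3.30 ± 1.49 CPM in cauda (log2 change 2.61 ± 0.50, adjusted p = 0.00830). Neither overlapped between the tissues.

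In the miR-15 and miR-16 family, repressors of cyclins and BCL2, 4 of the 9 members tested (of 13 in the table) were higher and 1 was lower in testis. miR-16-1-3p rose 9.36-fold, with 163, 209 and 181 CPM in testis, against 22.9, 16.4 and 19.8 CPM in cauda. miR-15b-5p averaged 167 ± 33.0 CPM in testis and 41.6 ± 10.2 CPM in cauda, and miR-16-5p averaged 10163 ± 1052 CPM in testis and 5433 ± 159 CPM in cauda. The member that fell was miR-195a-5p, of the miR-497 to 195 hairpins, at 225 ± 17.2 CPM in testis and 617 ± 17.6 CPM in cauda (log2 change -1.46 ± 0.18, adjusted p = 0.00166). Without testis library 2, 2 members of the family were lower in place of 1.

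Outside these families, the rule that took the 15 largest rises among abundant miRNAs named a mixed set. miR-140-3p, known from cartilage, had 4519, 3829 and 3438 CPM in the testis libraries, against 566, 756 and 735 CPM in the cauda libraries (log2 change 2.52 ± 0.21, adjusted p = 0.000738). Both arms of that hairpin rose, since miR-140-5p averaged 230 ± 31.3 CPM in testis and 47.9 ± 10.5 CPM in cauda. miR-216a-5p and miR-217-5p, neighbours in mammalian genomes and best known from the exocrine pancreas, rose 7.69-fold and 7.74-fold. For miR-217-5p the testis libraries had 487, 352 and 393 CPM, against 49.5, 54.7 and 54.8 CPM in the cauda libraries. miR-375-3p, known from pancreatic islets and other endocrine cells, had 635, 635 and 829 CPM in testis, against 163, 138 and 153 CPM in cauda (log2 change 2.21 ± 0.22, adjusted p = 0.000812). The testis and cauda values of these miRNAs did not overlap.

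Of the imprinted DLK1-DIO3 region, a large group of maternally expressed hairpins, 30 members were tested, of 52 in the table. In testis, 11 were higher and 1 was lower, beside 24.6% and 23.9% of all entries tested. Of the 305 mouse-named entries tested, 67 were higher and 100 were lower. The 11 include miR-299a-3p and miR-299b-3p, with 598 and 597 counts in testis and 514 and 510 in cauda. The same reads may have been counted under both names. The median log2 change of the 30 was 1.00. The count of higher members was 7 without testis library 2, 7 without cauda library 1, 7 without cauda library 2 and 5 without cauda library 3. The count of lower members was 3 without testis library 3 and 0 without testis library 2, cauda library 1 or cauda library 3. miR-411-5p had 414, 419 and 454 CPM in the testis libraries, against 208, 185 and 230 CPM in the cauda libraries (log2 change 1.05 ± 0.20, adjusted p = 0.00798, or 0.0543 without the low-count filter). miR-323-3p had 88.3, 104 and 129 CPM in testis, against 36.4, 28.0 and 33.7 CPM in cauda (log2 change 1.71 ± 0.28, adjusted p = 0.00464). The summed level of the members was 2006, 2685 and 2834 CPM in testis, against 1508, 1063 and 1289 CPM in cauda, and the sums did not overlap.

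The miRNAs that were low in testis began with the epithelial miR-200 family, hairpins of a pair of clusters that hold cells in the epithelial state by repressing ZEB1 and ZEB2. All 10 mouse-named arms in the table were tested, and 10 were lower in testis, with a median log2 change of -5.79. miR-200b-3p had 1155, 419 and 67.6 CPM in the testis libraries, against 77865, 61321 and 58188 CPM in the cauda libraries. Its change was -6.91 ± 1.15 on the log2 scale (adjusted p = 0.00537), and -8.10 without testis library 1. miR-200c-3p had 34.9, 25.1 and 14.5 CPM in testis, against 3153, 3441 and 2903 CPM in cauda (log2 change -6.99 ± 0.43, adjusted p = 0.000566). miR-141-3p had 122, 81.8 and 89.3 CPM in testis, against 5262, 2873 and 3002 CPM in cauda (log2 change -5.25 ± 0.37, adjusted p = 0.000586). No testis library came near a cauda library for any of these. An entry without a mouse name, labelled after macaque miR-141-5p, went the other way, at 3820, 3600 and 4870 CPM in testis. In cauda it had 449, 245 and 262 CPM (log2 change 3.69).

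The testis libraries differed among themselves in the cluster of miR-200b, miR-200a and miR-429. miR-200a-3p had 434, 123 and 11.1 CPM in testis, against 9793, 9132 and 8480 CPM in cauda (log2 change -5.59 ± 1.32, adjusted p = 0.0155). miR-429-3p had 110, 39.5 and 2.55 CPM in testis, against 2951, 2522 and 2178 CPM in cauda (log2 change -5.65 ± 1.31, adjusted p = 0.0147). Testis library 1 was the highest and library 3 the lowest of the testis libraries for both. Without testis library 2, the family count was 6 in place of 10, since miR-200a-3p (adjusted p = 0.0653), miR-200a-5p (0.0546), miR-200b-5p (0.0647) and miR-429-3p (0.0637) missed the threshold. miR-200b-5p also missed it without cauda library 2 (0.0538) and without cauda library 3 (0.0519). Without testis library 1, the log2 changes were -7.11 for miR-200a-3p, -6.12 for miR-200a-5p, -8.31 for miR-200b-5p and -6.93 for miR-429-3p. miR-429-5p was at 0 in all testis libraries, against 22.5, 4.88 and 15.6 CPM in cauda, which is at least 56.0-fold lower in testis against a floor of 3 counts over the group. The summed level of the family was 1965, 751 and 195 CPM in testis, against 101028, 82538 and 76898 CPM in cauda.

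miR-205-5p, a miRNA of basal epithelial cells, had 134, 173 and 3.40 CPM in the testis libraries, against 12623, 14133 and 8035 CPM in the cauda libraries (log2 change -6.81 ± 1.45, adjusted p = 0.0109), and without testis library 2 the log2 change was -7.44. miR-203-3p, which marks stratified epithelium in skin, averaged 139 ± 84.7 CPM in testis and 1245 ± 147 CPM in cauda (log2 change -3.16 ± 0.47, adjusted p = 0.00359), or -3.81 without testis library 1. miR-205-3p, at no more than 11.9 CPM in any library, was not called. The cluster of miR-183 with miR-96 and miR-182, known from sensory epithelia, was lower in testis in its 3 tested members of 5 in the table. miR-182-5p had 300, 263 and 67.6 CPM in testis, against 12409, 14570 and 21251 CPM in cauda, with no overlap (log2 change -6.26 ± 0.71, adjusted p = 0.00136). miR-96-5p had 1.60, 0.193 and 0 CPM in testis, against 152, 115 and 185 CPM in cauda (log2 change -7.93 ± 1.20, adjusted p = 0.00368), or -10.06 without testis library 1. An entry without a mouse name, labelled after human miR-96-5p, went the other way, at 530, 631 and 969 CPM in testis. In cauda it had 85.2, 32.9 and 33.3 CPM (log2 change 3.81).

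The miRNAs encoded in the Hox clusters, miR-10 and miR-196, were lower in testis in 7 of the 7 arms tested, of 8 in the table, with a median log2 change of -3.67. In the mouse, Hox genes pattern the male reproductive duct. miR-196b-5p had 113, 92.2 and 128 CPM in the testis libraries, against 2382, 1895 and 1961 CPM in the cauda libraries (log2 change -4.23 ± 0.23, adjusted p = 0.000566). miR-196a-5p had 653, 618 and 550 CPM in testis, against 6442, 10351 and 6395 CPM in cauda (log2 change -3.67 ± 0.26, adjusted p = 0.000586). The libraries of each tissue were close together and the tissues were far apart. miR-10b-5p was lower by less, at 4136, 3866 and 2718 CPM in testis, against 16344, 22164 and 16914 CPM in cauda (log2 change -2.37 ± 0.23, adjusted p = 0.000812). miR-10a-5p, named after its values were seen, varied within testis like the miR-200b cluster, with 717, 319 and 46.4 CPM, against 11115, 16528 and 11237 CPM in cauda (log2 change -5.17 ± 1.03, adjusted p = 0.00959), or -6.17 without testis library 1. miR-10a-3p, the other arm, had 13.1, 0.386 and 2.13 CPM in testis, against 251, 358 and 220 CPM in cauda (log2 change -5.73 ± 1.32, adjusted p = 0.0147), or -7.88 without testis library 1.

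**Figure D3:**
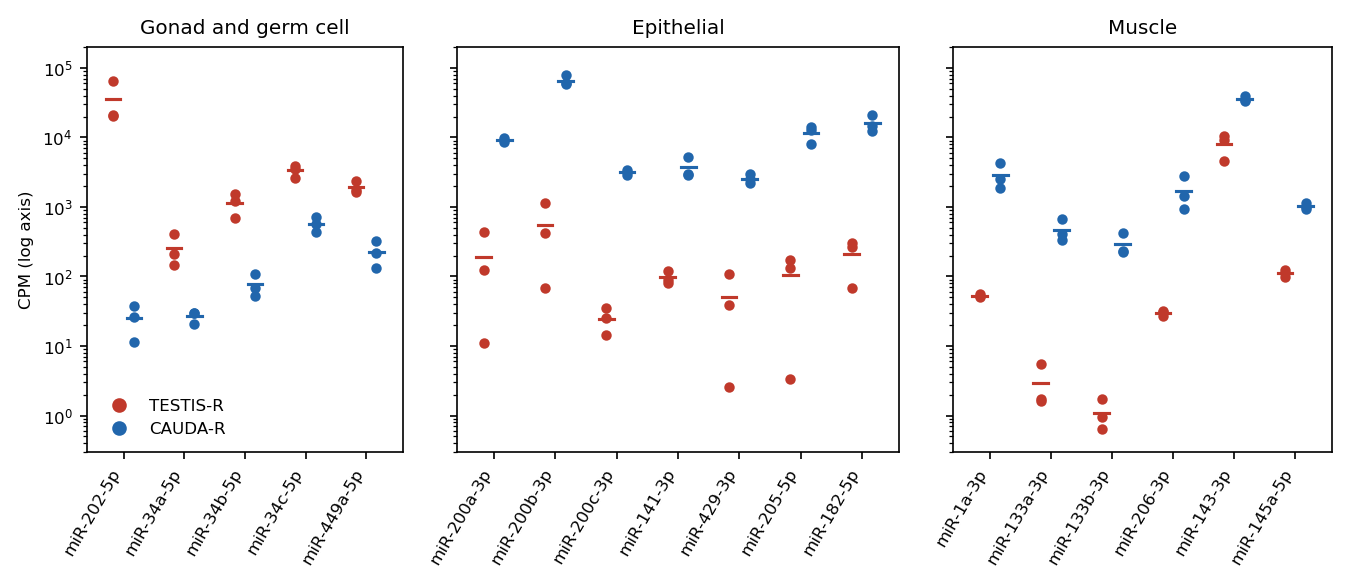
CPM (vertical, log axis) in each TESTIS-R library (red, left of each pair) and CAUDA-R library (blue, right), with bars at the means, for gonad and germ cell, epithelial and muscle miRNAs. miR-202-5p and the miR-34 and miR-449 members are higher in testis, all epithelial and muscle miRNAs shown are lower, and the testis points are spread widest for miR-200a-3p (11.1 to 434 CPM), miR-429-3p and miR-205-5p.

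Muscle miRNAs were lower in testis. The myomiRs miR-1, miR-133 and miR-206, which skeletal and (except miR-206) heart muscle make, were lower in 5 of the 5 arms tested, of 7 in the table, with a median log2 change of -5.84. miR-1a-3p had 56.0, 51.3 and 51.9 CPM in the testis libraries, against 1855, 2491 and 4277 CPM in the cauda libraries (log2 change -5.76 ± 0.40, adjusted p = 0.000586). miR-206-3p had 31.0, 32.2 and 26.8 CPM in testis, against 948, 1449 and 2778 CPM in cauda (log2 change -5.84 ± 0.51, adjusted p = 0.000738). Cauda library 3 was the highest for both and the testis libraries were nearly equal. miR-133a-3p had 1.60, 1.74 and 5.53 CPM in testis, against 337, 406 and 676 CPM in cauda (log2 change -7.34 ± 0.74, adjusted p = 0.000917), or -8.19 without testis library 3. The group's summed level was 89.2, 86.2 and 87.2 CPM in testis, against 3382, 4581 and 8170 CPM in cauda.

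The smooth muscle pair miR-143 and miR-145, products of 1 primary transcript in mammals, was lower in testis in 4 of the 4 arms tested, of 5 in the table. miR-143-3p had 10397, 9249 and 4560 CPM in the testis libraries, against 38907, 33919 and 35061 CPM in the cauda libraries (log2 change -2.16 ± 0.33, adjusted p = 0.00380). miR-145a-5p had 99.5, 126 and 112 CPM in testis, against 1130, 1013 and 944 CPM in cauda (log2 change -3.19 ± 0.21, adjusted p = 0.000586). Neither overlapped, and testis kept at least 4560 CPM of miR-143-3p.

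Connective, vascular and blood miRNAs gave mixed sizes of change. Endothelial miRNAs were lower in testis in 4 of the 4 mouse-named arms tested, of 7 in the table. These included miR-221-3p, but an entry without a mouse name, labelled after salmon miR-221-3p, went the other way. It had 54.1, 45.3 and 48.5 CPM in testis, against 0 in all cauda libraries. miR-126a-3p, made from an intron of EGFL7 in endothelium, averaged 2932 ± 387 CPM in testis and 7297 ± 533 CPM in cauda (log2 change -1.32 ± 0.16, adjusted p = 0.00165). miR-126a-5p missed the threshold without cauda library 3 (adjusted p = 0.0709) and with library totals (adjusted p = 0.0890). miR-222-3p fell 12.9-fold, to 3.52, 2.31 and 2.55 CPM in testis, against 38.9, 37.7 and 32.4 CPM in cauda. In the mesenchymal group of miR-199 and miR-214, 4 of 6 tested were lower, with miR-199a-3p at 2762, 3223 and 3627 CPM in testis, against 6070, 8040 and 5784 CPM in cauda (log2 change -1.05 ± 0.20, adjusted p = 0.00830). The entry miR-199b-3p held the same values, so these count as 1 measurement. miR-214-3p missed the threshold without cauda library 2 (adjusted p = 0.0556) and without cauda library 3 (adjusted p = 0.0602).

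Leukocyte miRNAs were lower in testis in 4 of the 7 tested, of 10 in the table, and higher in 1. miR-155-5p, induced in activated lymphocytes and macrophages, had 87.3, 63.2 and 57.8 CPM in the testis libraries, against 216, 622 and 396 CPM in the cauda libraries (log2 change -2.57 ± 0.46, adjusted p = 0.00692). miR-142a-5p, made across blood cells, averaged 31.0 ± 17.6 CPM in testis and 178 ± 36.9 CPM in cauda (log2 change -2.52 ± 0.50, adjusted p = 0.00959). Going the other way, miR-146b-5p, a brake on NF-κB signalling, had 127, 69.8 and 45.5 CPM in testis, against 4.25, 2.89 and 2.79 CPM in cauda (log2 change 4.60 ± 0.53, adjusted p = 0.00142). miR-150-5p, of mature lymphocytes, had 1 count in testis in all, against 10.8 to 11.4 CPM in the cauda libraries. The ratio of cauda to testis was 120, with a 95% interval of 21.3 to 4750. A more abundant entry, with the same mouse name after the prefix for new entries, was counted in every testis library. It had 3.84, 11.2 and 5.95 CPM in testis, against 130, 161 and 103 CPM in cauda (log2 change -4.22). Of 4 erythrocyte entries tested, miR-451a was called, at 10.6 ± 3.20 CPM in testis and 31.4 ± 8.13 CPM in cauda, and it missed the threshold without cauda library 2 (adjusted p = 0.0546), cauda library 3 (0.0836) or testis library 1 (0.0548).

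In 3 further families most arms tested were lower in testis. The clusters of miR-23, miR-27 and miR-24, widespread in vessels and muscle, had 6 of 7 tested lower, of 8 in the table. miR-24-3p had 87.3, 108 and 104 CPM in the testis libraries, against 1105, 617 and 828 CPM in the cauda libraries (log2 change -3.09 ± 0.29, adjusted p = 0.000788). miR-27b-3p, a regulator of lipid genes, averaged 3729 ± 136 CPM in testis and 13288 ± 3151 CPM in cauda. In the miR-26 family, 2 of 3 tested were lower, with miR-26a-5p at 4387, 3515 and 4993 CPM in testis, against 16521, 16529 and 16612 CPM in cauda (log2 change -1.95 ± 0.17, adjusted p = 0.000738). In the miR-148 and miR-152 family, which targets DNMT1, 5 of 5 tested were lower, and that count was 3 in each fit that left out 1 library other than testis library 3. miR-152-3p averaged 705 ± 20.7 CPM in testis and 1931 ± 142 CPM in cauda (log2 change -1.45 ± 0.15, adjusted p = 0.00115).

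**Figure D4:**
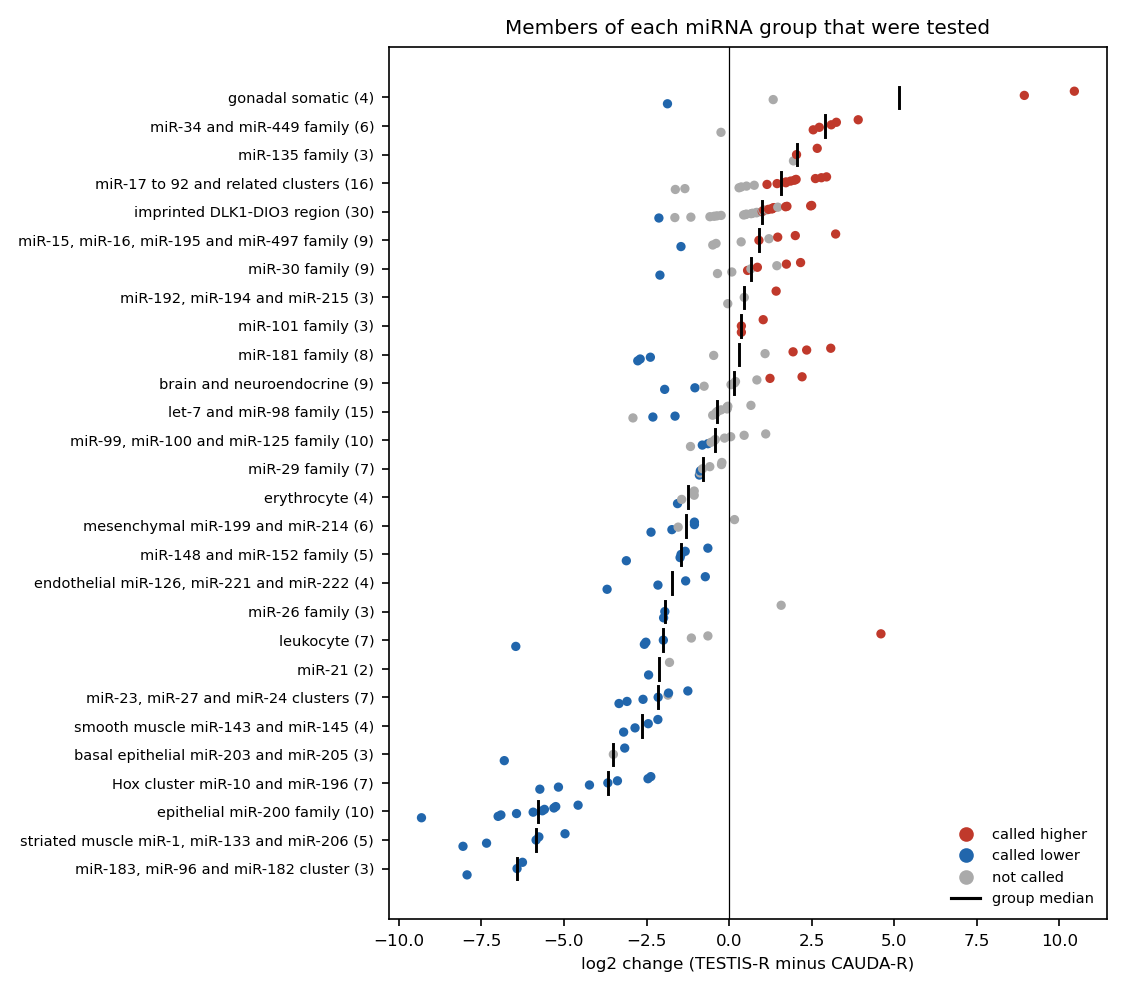
Log2 change (TESTIS-R minus CAUDA-R, horizontal) of each tested member of 28 miRNA groups, ordered by median (black bars), with members called higher in red, called lower in blue and not called in grey, and the number tested in brackets. The miR-34 and miR-449 median is 2.91 and the miR-200 median is -5.79, while the miR-181 family has members on both sides.

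Other families split between the tissues. In the miR-181 family, whose members share a seed, 3 of the 8 arms tested were higher in testis and 3 were lower, of 10 in the table. Among all 305 mouse-named entries tested, 67 were higher and 100 were lower, so the counts alone do not set this family apart. miR-181a-5p had 10155, 10005 and 9231 CPM in the testis libraries, against 1837, 2372 and 1561 CPM in the cauda libraries (log2 change 2.35 ± 0.20, adjusted p = 0.000738). miR-181c-5p had 58.2, 59.8 and 77.8 CPM in testis, against 469, 448 and 414 CPM in cauda (log2 change -2.76 ± 0.23, adjusted p = 0.000738). miR-181d-5p followed miR-181c-5p, at 120, 95.6 and 102 CPM in testis, against 561, 850 and 647 CPM in cauda (log2 change -2.69 ± 0.25, adjusted p = 0.000788). No value overlapped between the tissues for these miRNAs. In mammals, miR-181c and miR-181d share 1 cluster, and miR-181a and miR-181b share others. miR-181b-5p, named after its values were seen, was higher in testis (log2 change 1.94 ± 0.23, adjusted p = 0.00145). miR-181a-1-3p, the other arm of a miR-181a hairpin, rose 8.45-fold. The family members not called were miR-181a-2-3p, at 9.92, 7.33 and 5.53 CPM in testis, against 8.61, 14.1 and 8.87 CPM in cauda (adjusted p = 0.394), and miR-181b-1-3p, at 71.3, 25.5 and 40.0 CPM in testis, against 19.2, 26.2 and 18.9 CPM in cauda (adjusted p = 0.0969).

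The miR-30 family, which acts in cell differentiation and autophagy, had 4 of its 9 tested arms higher in testis and 1 lower, of 11 in the table, with 2 higher without testis library 2, cauda library 1 or cauda library 3. miR-30a-3p followed its partner arm miR-30a-5p, at 4236, 4527 and 3895 CPM in the testis libraries, against 911, 990 and 922 CPM in the cauda libraries (log2 change 2.16 ± 0.15, adjusted p = 0.000586). miR-30d-5p went the other way, at 1397, 1447 and 1300 CPM in testis, against 5334, 7185 and 5173 CPM in cauda (log2 change -2.09 ± 0.19, adjusted p = 0.000785). These arms did not overlap between the tissues.

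3 abundant families had 2 calls each among their mouse-named entries, all lower in testis. Of all entries tested, 48.5% were called and 23.9% were called lower. Of the 305 mouse-named entries tested, 67 were higher and 100 were lower. The lower calls of the miR-29 family and of the miR-99, miR-100 and miR-125 family lay near these lower shares. Of 15 mouse-named let-7 and miR-98 entries tested, of 23 in the table, 2 were lower in testis and 0 were higher. The median log2 change of the 15 was -0.36, beside -0.47 over all mouse-named entries tested. An entry without a mouse name, labelled after human let-7f-2-3p, was called higher in testis. It had 14.7, 27.2 and 22.1 CPM in testis, against 6.76, 8.12 and 6.21 CPM in cauda. let-7f-5p averaged 1594 ± 332 CPM in testis and 2249 ± 281 CPM in cauda and was not called (adjusted p = 0.115). let-7b-5p, at 199 ± 89.4 CPM in testis and 619 ± 69.8 CPM in cauda, missed the threshold without any 1 of the cauda libraries (adjusted p 0.0535 to 0.0681), and let-7d-5p, at no more than 15.6 CPM in any library, missed it in 4 of the 6 fits that left out 1 library. Without cauda library 1, 2 or 3, the let-7 count was 0. In the miR-29 family 2 of 7 tested were lower, and without cauda library 1 the count was 0. miR-29b-3p (log2 change -0.87 ± 0.20, adjusted p = 0.0135) then missed the threshold (0.0510), and miR-29b-2-5p (log2 change -0.90 ± 0.29, adjusted p = 0.0463) missed it in 5 of the 6 fits that left out 1 library, each except the one without testis library 3 (0.0509 to 0.112). The family count was 1 without testis library 1, cauda library 2 or cauda library 3, and 3 without testis library 3. In the miR-99, miR-100 and miR-125 family 2 of 10 tested were lower, and the count was 1 without testis library 1 or any 1 of the cauda libraries, as miR-125a-5p (adjusted p = 0.0311) then missed it. miR-99a-3p was not called, with 217 ± 33.7 CPM in testis and 100 ± 45.6 CPM in cauda.

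In the miR-135 family 2 of the 3 members tested were called. Of these, miR-135b-3p was higher in testis at 13.8 ± 1.99 CPM, against 2.13 ± 1.08 CPM in cauda (log2 change 2.67 ± 0.55, adjusted p = 0.0103, or 0.0696 without the low-count filter). miR-135a-5p, at 1405, 1125 and 3721 CPM in testis, against 760, 277 and 481 CPM in cauda, was called (adjusted p = 0.0363), but missed the threshold in 5 of the 6 fits that left out 1 library, and its log2 change was 2.04, or 1.25 without testis library 3. That library had the highest miR-202-5p as well. miR-192-5p, an epithelial miRNA of gut and kidney, was higher in testis (48.1 ± 7.06 CPM, against 17.9 ± 3.09 CPM in cauda) but missed the threshold without cauda library 3 (adjusted p = 0.0518). Its cluster partner miR-194-5p averaged 48.9 ± 3.51 CPM in testis and 50.3 ± 7.92 CPM in cauda and was not called. Among the 9 tested miRNAs known from brain and neuroendocrine cells, miR-375-3p and miR-7a-5p were higher (miR-7a-5p with an adjusted p of 0.0135, or 0.0704 without the low-count filter), and miR-129-5p and miR-9-3p were called lower with adjusted p of 0.0465 and 0.0428, and both missed the threshold in most fits that left out 1 library. Among the 491 mouse-named entries, 0 belonged to the X-linked miR-506 to miR-514 group or the miR-888 cluster, known from testis and epididymis of other mammals. Entries without a mouse name were not searched for them, but an entry labelled after macaque miR-510-3p was called higher in testis. It had 2636, 1919 and 1853 CPM in testis, against 276, 219 and 182 CPM in cauda (log2 change 3.24).

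The arms of a hairpin come from 1 precursor, so the ratio of their counts within a library does not depend on scaling. Both arms were tested for 67 hairpins, and the log2 ratio of the 5p to the 3p arm did not overlap between the tissues in 33 of them (49.3%). Both arms were called in the same direction for 24 hairpins, 6 higher and 18 lower in testis, and in opposite directions for 2. By the mean log2 ratio of each tissue, the more abundant arm differed between the tissues in 5. For miR-212 the cauda libraries disagreed on the leading arm (log2 ratios -0.37, 0.40 and -0.20), and for miR-376c the testis libraries did. miR-324 had 2 counts of its 3p arm in testis in all.

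miR-34b was the clearest of these 5. The log2 ratio of miR-34b-5p to miR-34b-3p was 3.45, 3.36 and 3.33 in the testis libraries, against -0.53, -1.05 and -0.94 in the cauda libraries. The 5p arm thus led in testis and the 3p arm led in cauda, and the libraries of a tissue were close together (two-sided exact permutation test, p = 0.1, the smallest possible). Its neighbour miR-34c had log2 ratios of 6.64, 6.27 and 7.59 in testis, against 7.15, 6.63 and 6.97 in cauda, which overlapped (exact p = 1). The limit on dividing reads between miR-34b-5p and miR-34c-5p applies to this ratio too.

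The opposite calls were those of miR-30d and miR-532. For miR-30d the log2 ratio was 3.35, 3.42 and 3.05 in the testis libraries, against 5.95, 6.38 and 6.33 in the cauda libraries (exact p = 0.1). The 5p arm led in both tissues and its lead was smaller in testis. miR-30d-3p had 137, 135 and 156 CPM in testis, against 86.0, 85.9 and 64.5 CPM in cauda (log2 change 0.86 ± 0.25, adjusted p = 0.0311), and missed the threshold in 5 of the 6 fits that left out 1 library. For miR-532, an X-linked hairpin, miR-532-5p had 381, 322 and 221 CPM in testis, against 56.1, 139 and 75.9 CPM in cauda (log2 change 1.77 ± 0.43, adjusted p = 0.0176). miR-532-3p was at 0 in all testis libraries, against 2.51, 4.33 and 2.66 CPM in cauda, at least 10.7-fold lower in testis against a floor of 3 counts over the group. miR-532-5p missed the threshold without testis library 1 (adjusted p = 0.0579), cauda library 1 (0.0518) or cauda library 3 (0.0793), and miR-532-3p missed it without any 1 of the cauda libraries (0.0672 to 0.0785).

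Among the 5 largest arm differences, those of miR-429, miR-212 and miR-324 also rested on low counts. miR-429-5p was at 0 in all testis libraries. The log2 ratios of miR-429 overlapped between the tissues, averaging -7.27 ± 3.11 in testis and -7.71 ± 1.10 in cauda (SD). miR-212-5p averaged 4.12 ± 0.954 CPM in testis and 4.05 ± 2.29 CPM in cauda, while miR-212-3p had 3 counts in testis in all, and neither was called. miR-324-3p had 2 counts in testis in all, against 5.01, 7.58 and 6.08 CPM in cauda, a ratio of cauda to testis of 32.1 with a 95% interval of 8.71 to 268. Its call was lost in 4 of the 6 fits that left out 1 library. miR-335, singled out after its values were seen, changed its leading arm, with log2 ratios of -0.90, -1.17 and -2.02 in testis, against 2.00, 1.41 and 1.88 in cauda (exact p = 0.1). miR-376c, also singled out, had ratios of 0.67, -1.25 and 0.74 in testis, against -2.997, -1.39 and -2.92 in cauda, with 1 testis library near the highest cauda library.

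**Figure D5:**
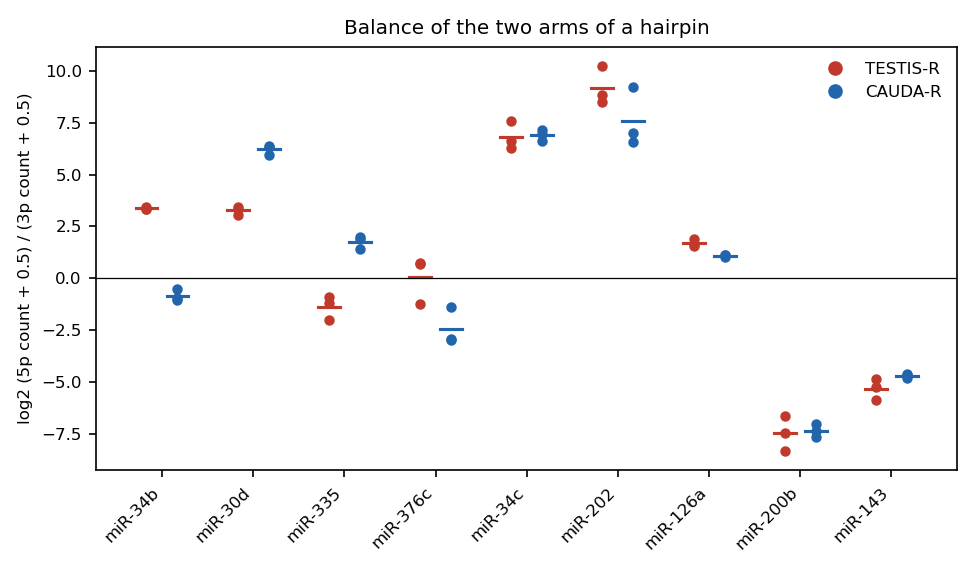
Log2 ratio of the 5p to the 3p count, each with 0.5 added (vertical), for 9 hairpins in each TESTIS-R library (red, left of each pair) and CAUDA-R library (blue, right), with bars at the means. The ratio of miR-34b lies at 3.33 to 3.45 in testis, against -1.05 to -0.53 in cauda, while that of miR-34c overlaps.

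Entries without a mouse name took 9.67% to 10.98% of the miRNA counts in the testis libraries, against 3.07% to 4.15% in the cauda libraries. Of the 171 that were tested, 50 were higher in testis and 14 were lower, with a median log2 change of 1.13, while of the 305 mouse-named entries tested 67 were higher and 100 were lower, with a median of -0.47. Of the called entries, 19 without a mouse name were at 0 in all cauda libraries and higher in testis, and 14 were at 0 in all testis libraries and lower, 4 of them mouse-named. The most abundant entry of this kind that was called, among those higher in testis, had 35206, 30777 and 28442 CPM in testis, against 7878, 15814 and 7880 CPM in cauda. The next had 22252, 19089 and 20067 CPM in testis, against 2401, 2790 and 1967 CPM in cauda, a log2 change of 3.10. Another had 6158, 4887 and 4801 CPM in testis, against 1299, 2760 and 1450 CPM in cauda, and missed the threshold without cauda library 3 (adjusted p = 0.0598).

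Of the entries without a mouse name that were lower in testis, the most abundant had 229, 738 and 99.1 CPM in testis, against 5099, 14870 and 8236 CPM in cauda, a log2 change of -4.73, or -5.91 without testis library 2. Another had 53.1, 41.1 and 42.1 CPM in testis, against 1401, 1728 and 1812 CPM in cauda, a log2 change of -5.18. The last of the 3 had 54.4, 57.5 and 82.5 CPM in testis, against 133, 129 and 139 CPM in cauda, and its call was lost without testis library 1, cauda library 1 or cauda library 3. None of these 6 overlapped between the tissues.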

How the data were processed

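The authors deposited raw counts per miRNA entry and per piRNA, with no normalization, for each library. Per the submitters' processing notes, featureCounts and bedtools were used. Not given in the sources used here: their versions, the aligner, the genome build, any molecular identifiers and the handling of reads that match several miRNAs. The 12 columns of other small RNA libraries in the miRNA table were not used.

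The test was the quasi-likelihood test of edgeR 4.0.16 (R 4.3.3) with tissue as the only term, after TMM scaling and the default low-count filter, with Benjamini-Hochberg adjustment over the 476 entries tested and calls at an adjusted p under 0.05. CPM were computed on the TMM-scaled library sizes. The standard error of a log2 change was the change divided by the square root of the F statistic. The scripts were tested on simulated data. A pseudocount of 0.5 was added for arm ratios. Intervals and floors of 3 counts cover counting error only. DESeq2 1.42.0 was an alternative.

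Replicate numbers were not taken to pair the tissues, because the labels do not say that they do. Deviations from the tissue means correlated at 0.0162, 0.149 and 0.329 for numbers 1, 2 and 3. Between unlike numbers the correlations ran from -0.226 to 0.102. With 3 libraries a tissue, these values cannot decide whether the numbers mark pairs. p-values measure the spread between these 3 libraries a tissue. In 7 pairs of entries the counts differed by at most 1% in every library, and such pairs are uncertain.

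The comparison, the miRNA groups and their members were chosen with earlier results of these data known. Named were called mouse-named miRNAs with at least 100 CPM in the higher tissue and no overlap (the 15 largest changes each way of 109), the 10 most abundant of each tissue, the 4 smallest p of each group, hairpins with opposite or the 5 largest arm differences, and the 3 most abundant called entries each way without a mouse name. No sequences were used here.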

Additional observations from a re-analysis of the deposited data

How the results depend on the processing

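Of the 231 calls, DESeq2 made 230 among its 254, DESeq2's size factors in edgeR made all 231 among 235, and library totals made 217 among 230. No call changed direction under these settings. Without the low-count filter, 154 entries were called among 1044, 70 of them higher in testis. With the replicate number as a replicate block, 134 were called, 59 higher and 75 lower. In their deviations from the tissue means, the libraries numbered 1 did not move together. Those numbered 2 and 3 correlated best with their own number in the other tissue, so pairing remains undecided. Leaving out 1 library gave 162 to 248 calls, 82 to 119 higher and 80 to 129 lower, with the fewest without cauda library 3, and a log2 piRNA difference of 6.14 to 7.06. Values that turned sign were not called in the first place: with library totals, the log2 change was 0.22 for miR-194-5p (-0.04 in the reported fit), 0.10 for miR-29a-3p (-0.22) and 0.078 for miR-29c-3p (-0.23), and without the filter it was -0.15 for miR-212-5p (0.02). Leaving out 1 library gave -0.18 to 0.059 for miR-194-5p, -0.23 to 0.55 for miR-212-5p, -0.41 to 0.17 for miR-29a-3p, -0.38 to 0.044 for miR-29c-3p and -0.57 to 0.0048 for miR-34b-3p. The cause was not tested. With library totals, the let-7 median was -0.09 and the miR-99, miR-100 and miR-125 median was -0.14. Of the 109 named calls, 7 missed the threshold with library totals, 23 without the filter, 25 with the block, 1 with near-identical entries counted once and 0 with DESeq2 or its size factors; all were of the direction reported. In the DLK1-DIO3 region, 2 members were higher without the filter and 1 with the block. The testis libraries were the shallower, and 3 counts stood for 0.578 to 1.28 CPM there, against 0.327 to 0.542 CPM in cauda, so levels near 1 CPM in testis were not resolved. Group counts without 1 library and shares of counts without the miR-101 entries were chosen after seeing the data.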
